A study of Mus musculus with 2 samples.

Results

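The voltage-gated sodium channel genes Scn2a, Scn3a, Scn8a and Scn9a, which each encode a pore-forming alpha subunit, and Scn3b, which encodes an auxiliary beta subunit, were followed across the cells of mouse pancreatic islets. They were taken by symbol from the count tables of both libraries and are 5 of the 33038 genes listed in either table. Cells were grouped by which of insulin (Ins1 and Ins2 added), Gcg, Sst and Ppy reached 1% of their unique molecular identifiers (UMIs, deduplicated transcripts). The hormones thus defined the groups and the sodium channel genes did not. Together the 5 genes had 4274 UMIs among the 15931154 of library 1 and 5194 among the 17440292 of library 2.

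Islets of 8-week-old C57BL/6J mice, labelled as control, were handpicked and dissociated, and 10000 cells were loaded for each of 2 RevGel-seq libraries. The mice were male according to the study's methods. In this preparation a cell is tied to a barcoded bead inside a gel that can be dissolved again. The methods describe the libraries as technical replicates of the same islet material, so every SD and p-value below measures the spread between preparations and none between animals. Library 1 held 735 cell barcodes with a median of 17340 UMIs, library 2 held 748 with a median of 18922, and they shared 0 barcodes.

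Voltage-gated sodium channels open when a membrane depolarises and close again within milliseconds by inactivation, which gives action potentials their fast upstroke. The alpha subunit forms the pore and carries the voltage sensors and the inactivation gate, while beta subunits alter gating and the delivery of the channel to the membrane. Islet cells are electrically excitable: insulin is released by beta cells, glucagon by alpha cells, somatostatin by delta cells and pancreatic polypeptide by gamma cells, and in each of these action potentials bring in the calcium that releases the hormone. Scn3a and Scn9a encode Nav1.3 and Nav1.7, the sodium channels best known from islets, Scn2a and Scn8a encode Nav1.2 and Nav1.6, best known from brain axons, and Scn3b encodes the beta3 subunit.

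The alpha subunits are close relatives, which matters for a method that tells transcripts apart by short reads. Over the whole coding sequence of GENCODE M21 transcripts (mouse build GRCm38), identity between pairs ranged from 74.0% for Scn8a and Scn9a to 84.1% for Scn2a and Scn3a. Reads shared by relatives could pass between their counts only where the sequence is identical over a read. Cut into windows of 70 bases, the length of the transcript read, the transcripts of Scn2a and Scn3a had 301 windows in common, those of Scn3a and Scn9a 299 and those of Scn2a and Scn9a 160. For a single pair these were at most 2.40% of the windows of either gene. That share is over whole transcripts, whereas the method captures the 3' end of mRNA. Windows shared by Scn3a and Scn2a came within 47 bases of the 3' end of an annotated Scn3a transcript and 114 bases of a Scn2a one. The share among reads near the 3' end was not measured. Scn8a shared 0 windows with the others. How such reads were assigned is not given in the sources used here.

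The genes lie on 3 chromosomes. Scn3a (chr2:65457118-65567627, minus strand), Scn2a (chr2:65620771-65767447, plus strand) and Scn9a (chr2:66480080-66634962, minus strand) belong to a group on chromosome 2 that also holds Scn1a and Scn7a and spans 1.33 Mb. Scn8a lies at chr15:100869858-101045938 and Scn3b at chr9:40269217-40291618, both on the plus strand. Exons of Scn9a overlap those of an antisense gene, Gm13629, so the Scn9a count is uncertain to an extent not measured here if strand was not used in counting.

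The largest groups were cells with insulin only (182 in library 1 and 190 in library 2) and cells with Gcg only (182 and 174). There were 35 and 23 cells with Sst only, 54 and 68 with Ppy only, 65 and 86 with Gcg and Ppy, 77 and 71 with Sst and Ppy, and 37 and 27 with insulin and another hormone. A further 91 and 92 cells had no hormone at 1% and stand here for the background. Levels are given throughout as CPM, the UMIs of a gene for every 1000000 UMIs of genes other than the 5 hormone genes, so that a cell's load of hormone mRNA does not dilute them. They are compared between groups for the same gene and not between genes. Marker lists went with the hormones: Mafa, a beta cell transcription factor, stood at 1162 and 1216 CPM in cells with insulin only, the alpha cell factor Irx2 at 286 and 301 in cells with Gcg only and the delta cell factor Hhex at 316 and 479 in cells with Sst only. Tspan8 of the gamma list stood at 748 and 702 in cells with Ppy only, while Aqp3 of that list was at 0 there in both libraries.

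The cells with no hormone differed between the libraries in a few barcodes. In library 2, 3 of these cells had more markers of the nerve list (which includes Sox10, S100b, Elavl4 and Prph) than of any other list, and 2 of the 3 held 407 of the 439 sodium channel UMIs of the whole group there. The same group had 28 in library 1. Values for cells with no hormone are therefore given without the 3 barcodes, a choice made after the data were seen, and with them where stated.

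Scn3a separated cells with insulin from all other hormone cells. It stood at 28.0 CPM in library 1 and 48.4 in library 2 in cells with insulin only, against 181 and 191 in cells with Gcg only, 247 and 253 in cells with Ppy only and 255 and 365 in cells with Sst only. The insulin cells were the lowest of the 4 groups in both libraries, and their range lay below every other. Cells with insulin and another hormone stood between, at 124 and 120. Cells with no hormone were at 5.66 and 4.81.

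Differences were tested with edgeR's quasi-likelihood test on UMIs summed per library and group, with Benjamini-Hochberg adjustment over the 12986 genes tested and a threshold of 0.05. Scn3a was 4.77-fold lower in cells with insulin only than with Gcg only (log2 fold change -2.25, SE 0.17, adjusted p = 8.72e-12). It was 7.27-fold lower than in cells with Sst only (log2 fold change -2.86, SE 0.21, adjusted p = 1.09e-11) and 6.35-fold lower than in cells with Ppy only (log2 fold change -2.67, SE 0.17, adjusted p = 5.40e-13). Each of these 3 calls held in all 14 alternative analyses, with log2 fold changes from -3.09 to -1.82. Among the other groups the differences were smaller: Scn3a was 1.52-fold lower with Gcg only than with Sst only (log2 fold change -0.61, SE 0.17, adjusted p = 0.0122) and 1.33-fold lower than with Ppy only (log2 fold change -0.41, SE 0.14, adjusted p = 0.0416). The first of these was lost without library 2 (log2 fold change -0.37, adjusted p = 0.370), and the second without either library (adjusted p = 0.380 without library 1 and 0.342 without library 2) and in DESeq2 (adjusted p = 0.129). Sst only and Ppy only cells differed by 0.20 on the log2 scale, which did not pass (adjusted p = 0.523).

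**Figure D1:**
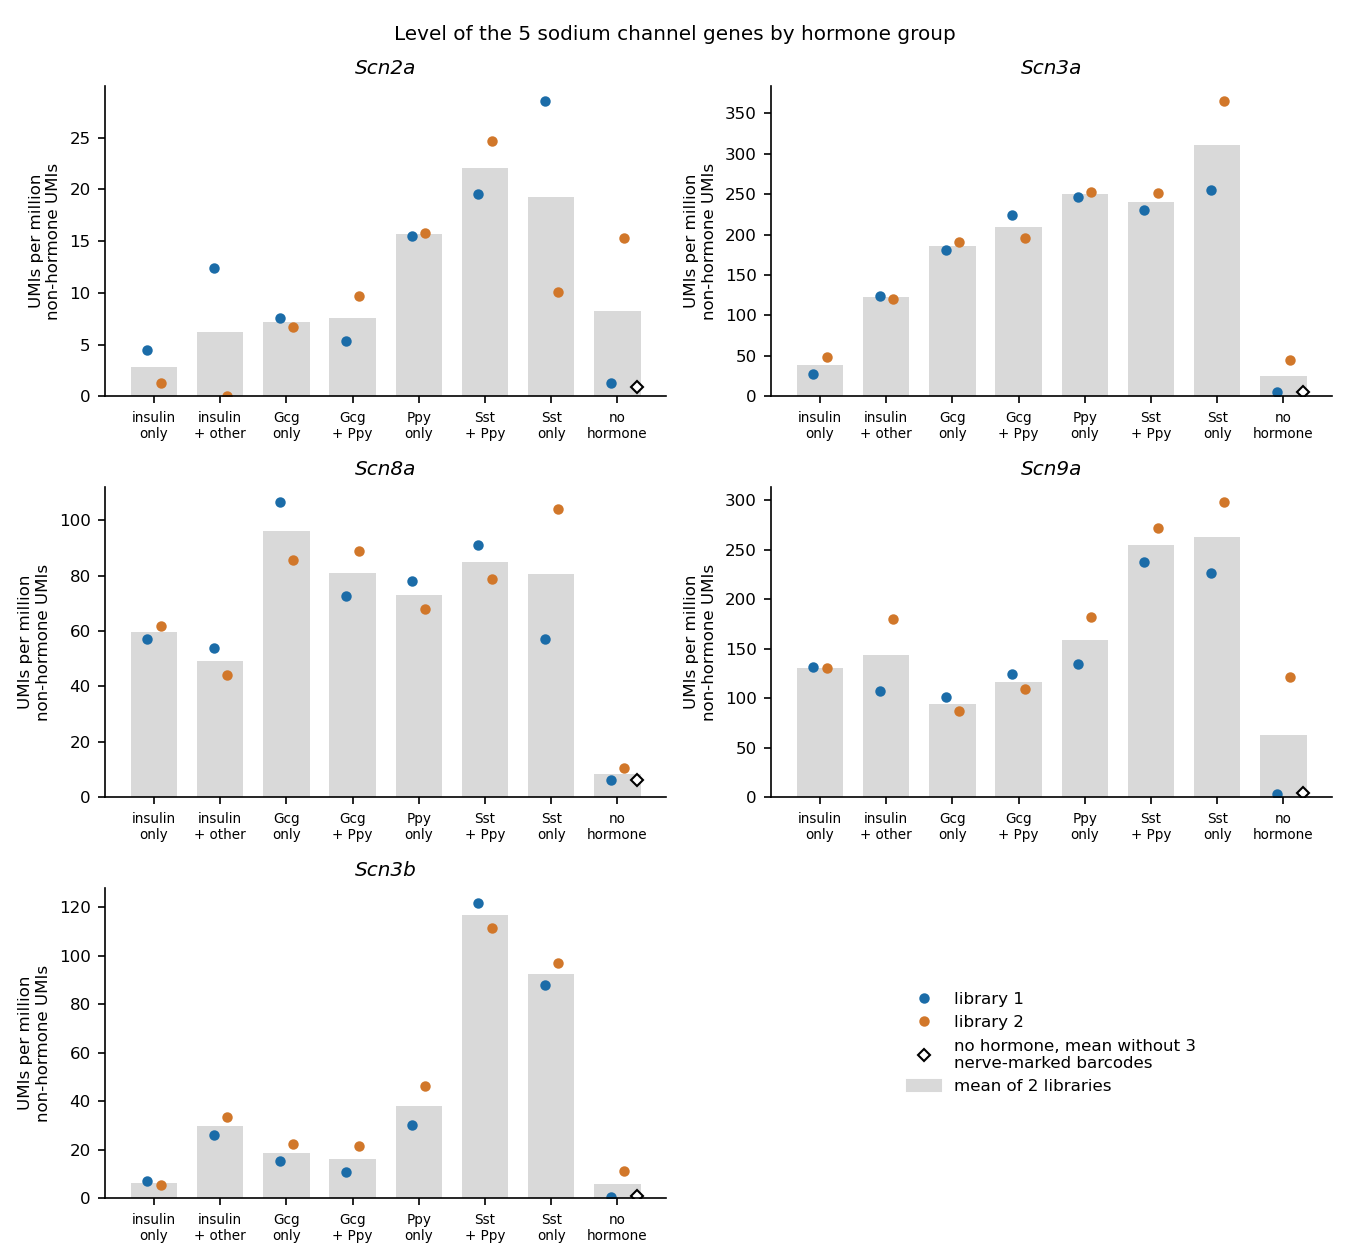
Level of each gene (y axis, CPM over genes other than the 5 hormone genes) in 8 groups of cells (x axis). Bars are means of 2 libraries, points the libraries, and the open diamond the mean of the cells with no hormone without 3 nerve-marked barcodes; Scn3a was at 38.2 in cells with insulin only and at 186 to 310 in the groups with Gcg, Ppy or Sst but no insulin.

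Scn9a had another order, with cells with Sst at the top and cells with Gcg at the bottom. It stood at 226 and 298 CPM in cells with Sst only, 135 and 182 with Ppy only, 131 and 130 with insulin only and 101 and 87.5 with Gcg only. The insulin cells thus lay above the Gcg cells in both libraries, the reverse of their order for Scn3a, and their range did not overlap that of the Sst cells. In the background cells with no hormone it was at 3.77 and 4.28.

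Scn9a was 1.43-fold higher in cells with insulin only than with Gcg only (log2 fold change 0.51, SE 0.14, adjusted p = 0.00422). That call was lost without library 2 (log2 fold change 0.39, adjusted p = 0.217) and when cells were assigned to the hormone with most UMIs (0.32, adjusted p = 0.0505). In cells with Sst only it was 1.79-fold higher than with insulin only (log2 fold change of insulin against Sst -0.84, SE 0.17, adjusted p = 4.23e-04) and 2.55-fold higher than with Gcg only (log2 fold change of Gcg against Sst -1.35, SE 0.17, adjusted p = 7.66e-07), and both held without either library. The first missed the threshold with 23 cells in each sum (-0.82, adjusted p = 0.0727). Cells with Gcg only were also 1.69-fold below cells with Ppy only (log2 fold change -0.75, SE 0.14, adjusted p = 3.29e-04), which did not pass without library 2 (-0.39, adjusted p = 0.354). Sst only lay 1.51-fold above Ppy only (log2 fold change 0.60, SE 0.17, adjusted p = 0.0161), a call lost without library 1 (adjusted p = 0.0920) and without library 2 (adjusted p = 0.0751). Insulin only and Ppy only did not differ past the threshold (log2 fold change -0.24, adjusted p = 0.211).

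The ratio of Scn3a to Scn9a UMIs within the same cells shows the same contrast without any scaling by depth. There were 0.213 and 0.372 Scn3a UMIs per Scn9a UMI in cells with insulin only, and 1.78 and 2.18 in cells with Gcg only. Cells with Ppy only had 1.83 and 1.39, and cells with Sst only 1.13 and 1.22. Insulin cells were lowest and did not overlap any other group, while the Sst cells lay below the Gcg and Ppy cells in both libraries. With Ppy in addition the ratio was 1.80 and 1.79 beside Gcg and 0.969 and 0.926 beside Sst. These ratios compare groups and do not say which channel is the more abundant, since capture of the transcripts of each gene was not measured.

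**Figure D2:**
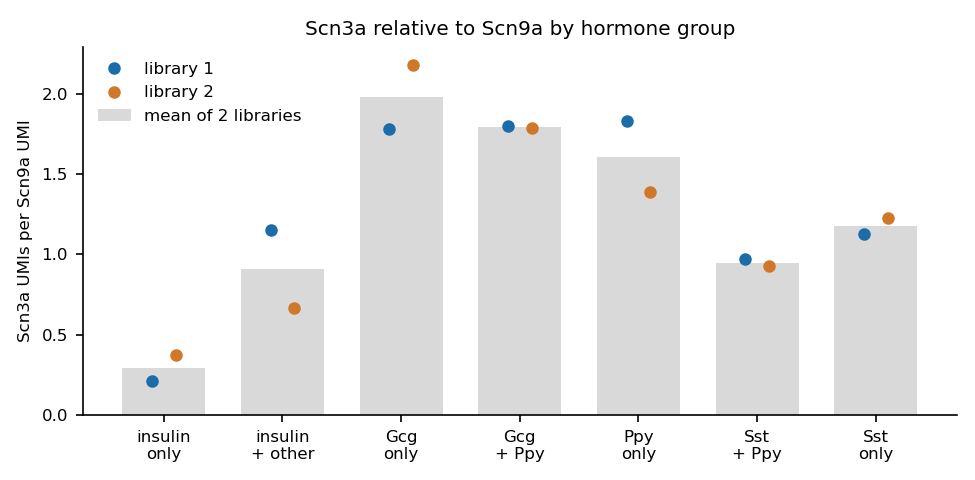
UMIs of Scn3a per UMI of Scn9a (y axis) in 7 groups of cells (x axis), with the mean of 2 libraries as bars and the libraries as points. Cells with insulin only sit at 0.213 and 0.372, below every other group, and cells with Gcg only reach 2.18.

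Scn3b, the beta3 subunit, was highest in cells with Sst. It stood at 87.9 and 97.2 CPM in cells with Sst only and 122 and 112 with Sst and Ppy, against 30.1 and 46.3 with Ppy only, 15.2 and 22.3 with Gcg only and 7.01 and 5.47 with insulin only. The 4 single-hormone groups did not overlap between libraries and kept the order Sst, Ppy, Gcg, insulin in both. The level with no hormone was 0.629 and 1.07.

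Scn3b was 13.2-fold lower in cells with insulin only than with Sst only (log2 fold change -3.72, SE 0.35, adjusted p = 2.16e-09), the largest difference among the 30 tests of these genes between single-hormone groups. It was 5.92-fold lower in insulin than in Ppy cells (log2 fold change -2.57, SE 0.32, adjusted p = 2.27e-07) and 4.55-fold lower in Gcg than in Sst cells (log2 fold change -2.19, SE 0.30, adjusted p = 1.98e-06). All 3 held in all 14 alternatives. In insulin cells, however, Scn3b had 19 and 13 UMIs, too few to pass the test's filter on low counts by themselves. It was tested because groups with more of it passed, so the size of its fold changes against insulin cells is uncertain. The remaining calls were less firm. Insulin cells were 2.89-fold below Gcg cells (log2 fold change -1.53, SE 0.33, adjusted p = 4.26e-04), with -1.09 and adjusted p = 0.110 without library 2, and with the opposite sign when each sum held 23 cells (0.22, SE 0.94, adjusted p = 0.919). Gcg cells were 2.05-fold below Ppy cells (log2 fold change -1.03, SE 0.26, adjusted p = 0.00520), with adjusted p = 0.0577 without library 1 and 0.207 without library 2. Sst cells were 2.22-fold above Ppy cells (log2 fold change 1.15, SE 0.29, adjusted p = 0.00568), with 0.96 and adjusted p = 0.160 without library 1, and with 0.65 and adjusted p = 0.278 when a hormone counted from 0.5% of UMIs.

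Scn8a had the fewest differences called between groups. It stood at 107 and 85.7 CPM in cells with Gcg only, 78.2 and 68.0 with Ppy only, 57.2 and 61.9 with insulin only and 57.1 and 104 with Sst only. The libraries of the Sst cells lay far apart and overlapped every other group, and these cells had 57 UMIs in both libraries together, the fewest of the 4 groups. Cells with no hormone were at 6.29 and 5.88, so every hormone group lay far above them. The 1 difference called was between insulin and Gcg cells, 1.57-fold lower with insulin (log2 fold change -0.65, SE 0.16, adjusted p = 0.00233), and it was lost without library 1 (log2 fold change -0.40, adjusted p = 0.312) and larger with 23 cells in each sum (-1.59, adjusted p = 0.00149). The other 5 comparisons of Scn8a lay between -0.23 and 0.42 on the log2 scale and did not pass.

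Scn2a was the rarest of the 5. It had 12 and 3 UMIs in cells with insulin only (4.43 and 1.26 CPM), 20 and 19 with Gcg only (7.62 and 6.73), 18 and 27 with Ppy only (15.5 and 15.8) and 13 and 3 with Sst only (28.6 and 10.1). Ppy cells lay above Gcg cells and Gcg cells above insulin cells in both libraries, whereas the Sst cells were uncertain, as 62.5% of their 16 UMIs came from 3 cells. Scn2a was 6.33-fold lower in insulin than in Sst cells (log2 fold change -2.66, SE 0.63, adjusted p = 0.00259), lost without library 1 (-2.75, adjusted p = 0.164), and 5.05-fold lower than in Ppy cells (log2 fold change -2.34, SE 0.52, adjusted p = 8.42e-04), lost without library 2 (-1.74, adjusted p = 0.0866). Against Gcg cells the log2 fold change was -1.23 and did not pass (adjusted p = 0.0714). The 12 and 3 UMIs in insulin cells were too few to pass the test's filter on low counts by themselves. Scn2a was tested because groups with more of it passed, so the size of its fold changes against insulin cells is uncertain.

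Counted over the 5 genes, 4 were called between insulin only and Gcg only, where 36% of all genes tested were called. There were 4 called between insulin and Sst cells (21% of all genes), 3 between insulin and Ppy cells (30.3%), 3 between Gcg and Sst cells (18%), 3 between Gcg and Ppy cells (17.8%) and 2 between Sst and Ppy cells (14.5%). The median log2 fold change of the 5 was -1.23, -2.66 and -2.34 for insulin cells against Gcg, Sst and Ppy cells, beside medians over all genes of -0.02, 0.00 and 0.00. Each of these medians of the 5 was the value of Scn2a, which had few UMIs in insulin cells. For Gcg against Sst and Ppy cells the median of the 5 was -1.35 and -0.75 beside 0.03 and 0.00, and for Sst against Ppy cells 0.33 beside -0.02. Of the 11 calls that involve insulin cells, 10 were lower with insulin and Scn9a against Gcg cells was the exception. The calls of Scn2a and Scn3b among them rest on genes that passed the filter on low counts only through other groups. Among all genes, 17.8%, 10.3% and 14.9% were called lower with insulin than with Gcg, Sst and Ppy. These comparisons share groups and are not independent of each other. When the cells with no hormone were added to the fit, 10 of these 19 calls were lost, and 1 when they were added without the nerve-marked barcodes.

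**Figure D3:**
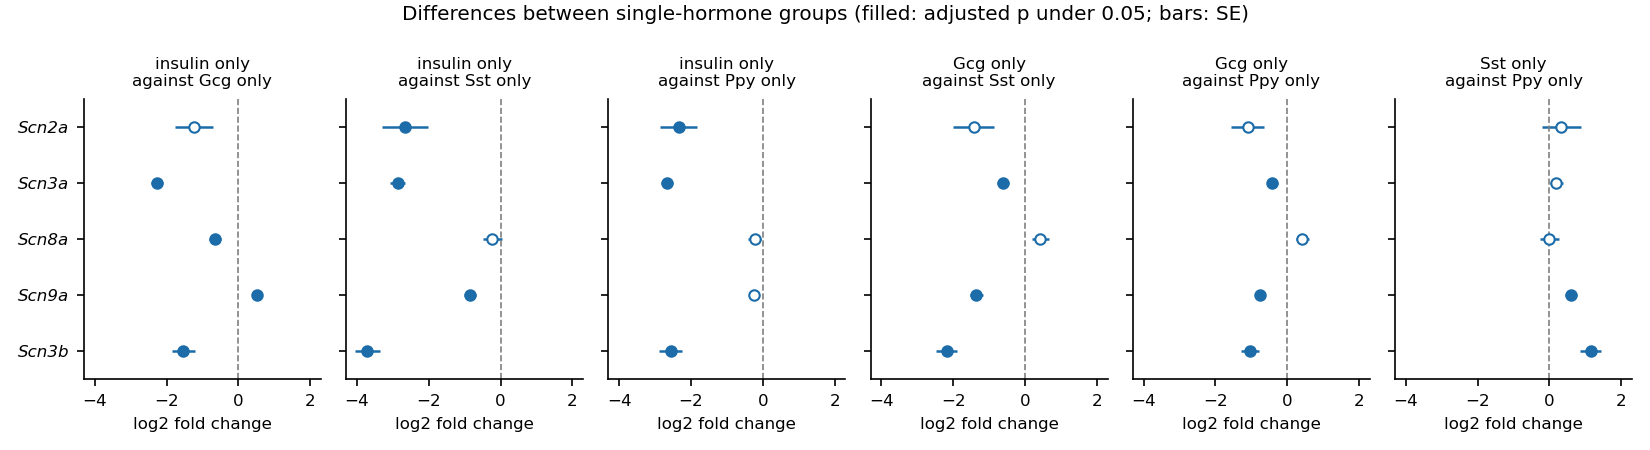
Log2 fold change of each gene (x axis) in the 6 comparisons of single-hormone groups (panels), with SE as bars; filled points have an adjusted p under 0.05 in edgeR. Scn3a and Scn3b lie left of 0 in all 3 insulin comparisons, with Scn3b at -3.72 against Sst only, while Scn8a stays between -0.65 and 0.42 throughout.

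The share of cells with a UMI was taken as another measure of each gene. A UMI of Scn3a was found in 38 of 182 cells with insulin only in library 1 (20.9%, 95% Clopper-Pearson interval 15.2% to 27.5%) and 47 of 190 in library 2 (24.7%, 18.8% to 31.5%). In cells with Gcg only it was 132 of 182 (72.5%, 65.4% to 78.9%) and 131 of 174 (75.3%, 68.2% to 81.5%). At the full depth of each cell the intervals of these groups lie far apart, and all of them lie above the background of 4.40% and 5.62% in cells with no hormone. Intervals cover counting error only.

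Depth differed between groups, so the shares were also taken after thinning every cell to 4000 UMIs. The median cell had 18406 UMIs with insulin only, 17974 with Gcg only, 13408 with Sst only and 29562 with Ppy only as means over libraries, and 13195 and 14744 with no hormone. After thinning, Scn3a was found in 6.66% ± 3.98 (SD, n = 2) of insulin cells, 41.6% ± 0.268 of Gcg cells, 43.5% ± 1.27 of Ppy cells and 58.3% ± 9.75 of Sst cells, against 3.28% ± 0.0253 of all cells with no hormone. The insulin cells were still lowest in both libraries. Insulin mRNA uses up part of the thinned UMIs in these cells, which the levels above leave out.

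Scn9a and Scn8a were seen in most hormone groups by this measure. Scn9a had a UMI in 57.9% ± 5.94 of insulin cells, 50.5% ± 1.57 of Gcg cells, 76.6% ± 6.12 of Ppy cells and 87.8% ± 1.14 of Sst cells. Scn8a had one in 42.0% ± 2.04, 63.2% ± 1.57, 67.3% ± 1.66 and 51.2% ± 19.9. Background was 3.30% and 5.62% for Scn9a and 5.49% and 3.37% for Scn8a. After thinning, Scn9a was found in 27.8% ± 10.6 of Ppy cells, the deepest group, beside 23.7% ± 4.52 in insulin cells, which leaves the ranges of these groups overlapping.

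Scn3b and Scn2a were sparse. Scn3b had a UMI in 6.48% ± 1.72 of insulin cells, 19.4% ± 3.40 of Gcg cells, 45.2% ± 8.90 of Ppy cells and 63.4% ± 8.78 of Sst cells, and in 1.10% and 2.25% of cells with no hormone. Scn2a had one in 2.99% ± 1.99, 7.02% ± 0.174, 15.7% ± 1.39 and 13.7% ± 0.878. For Scn2a in insulin cells the intervals, 1.92% to 8.48% and 0.327% to 4.54%, overlapped the background of 2.20% and 1.12%, so Scn2a was not detectable above background there at this depth.

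**Figure D4:**
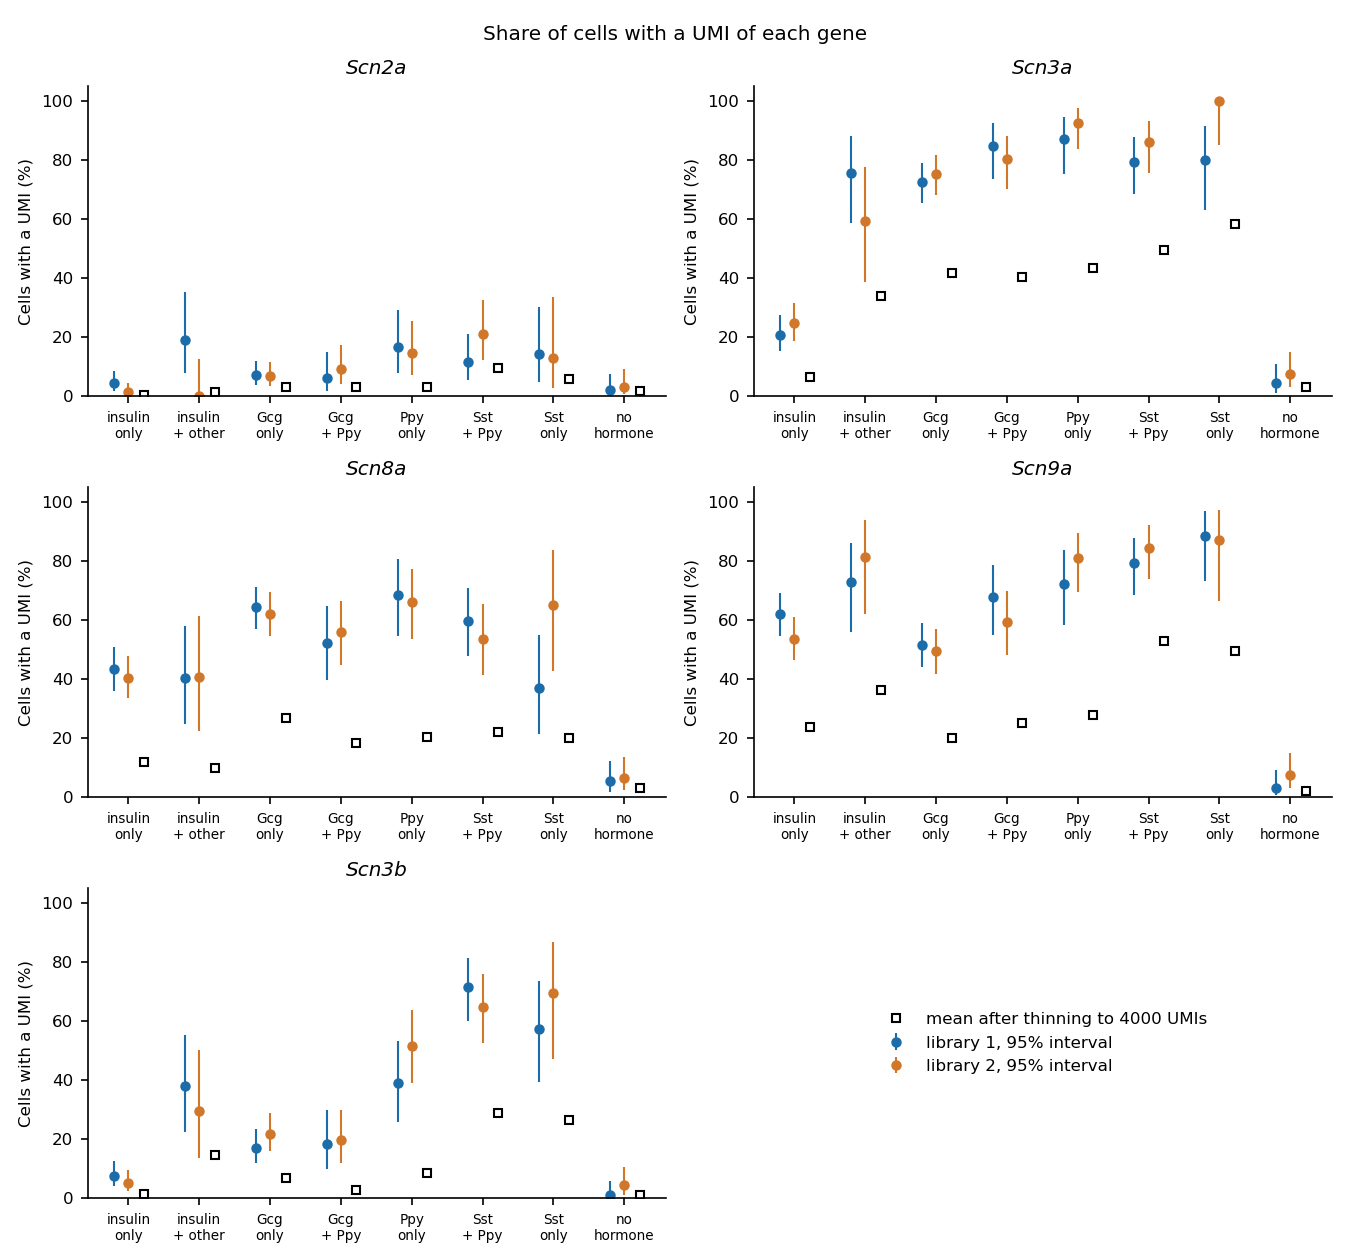
Share of cells with at least 1 UMI of each gene (y axis, percent) in 8 groups (x axis), with 95% Clopper-Pearson intervals per library and, as open squares, the mean of 2 libraries after thinning every cell to 4000 UMIs. Among the hormone groups Scn3a runs from 22.8% of cells with insulin only to 90.0% of cells with Sst only, while Scn2a is at or below 16.4% in every group; cells with no hormone are shown with all their barcodes.

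The number of these genes seen together in a cell varied in the same way. Cells with insulin only held UMIs of 1.38 of the 5 genes on average in library 1 and 1.26 in library 2, and 22.0% and 24.7% of them held none. Cells with Gcg only held 2.13 and 2.16, with Ppy only 2.83 and 3.06, and with Sst only 2.77 and 3.35, where 0 of 35 and 0 of 23 cells lacked all 5. After thinning the means were 0.462 and 0.426, 1.08 and 0.885, 0.926 and 1.15, and 1.60 and 1.61 in the same order.

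Many islet cells carried Ppy beside another hormone, and none of the 5 genes was called for it. Comparing cells with Gcg and Ppy with Gcg only cells, log2 fold changes lay between -0.24 for Scn8a and 0.30 for Scn9a (lowest adjusted p = 0.618), with 0 of 5 called by edgeR and 0.4% of all genes. Comparing cells with Sst and Ppy with Sst only cells, they lay between -0.32 for Scn3a and 0.36 for Scn3b (lowest adjusted p = 0.705), with 0 of 5 called and 0.0308% of all genes. In both comparisons 0 of the 5 had an unadjusted p under 0.05 and 0 were called by DESeq2. The SE of these differences ran from 0.15 for Scn3a and Scn9a beside Gcg to 0.53 for Scn2a beside Sst, so small changes were not detectable at this depth. A difference in the change with Ppy between Gcg and Sst cells did not pass for any of the 5 in edgeR either. For Scn3a it was 0.49 (SE 0.23, unadjusted p = 0.0441, adjusted p = 0.621).

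Cells with several hormones that were not tested are given as levels. In cells with insulin and another hormone, Scn3a was at 124 and 120 CPM, Scn9a at 108 and 180, Scn8a at 53.9 and 44.2, Scn3b at 26.2 and 33.6 and Scn2a at 12.4 and 0. These 64 cells held 5 of the 14 barcodes called doublets by Scrublet. In the 29 cells with Gcg and Sst, Scn3a was at 242 and 220, Scn9a at 212 and 201 and Scn3b at 78.4 and 30.6.

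Ordered by level, some neighbouring groups overlapped in their libraries and others did not. For Scn3a the order was Sst only, Ppy only, Sst and Ppy, Gcg and Ppy, Gcg only, insulin and another hormone, insulin only, and the ranges of neighbours overlapped only for Ppy only with Sst and Ppy. For Scn9a, Sst only overlapped Sst and Ppy, and Ppy only overlapped insulin and another hormone, which overlapped insulin only. For Scn3b, Ppy only overlapped insulin and another hormone, and Gcg only overlapped Gcg and Ppy. For Scn8a the first 5 groups all overlapped their neighbours. Insulin only and insulin and another hormone came next in order and overlapped no neighbour. The range of Sst only, 57.1 to 104, nevertheless enclosed that of insulin only. For Scn2a, groups with Sst or Ppy alone or together came first and overlapped, and the others overlapped their neighbours.

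Within cells with insulin only, Scn3a varied with the share of insulin. Cells of each library were split at the library's median share of insulin UMIs, which gave low-insulin cells with a median of 33.0% and 35.8% insulin and high-insulin cells with 44.7% and 49.1%. Scn3a stood at 38.2 and 69.5 CPM in low-insulin cells and 12.2 and 16.8 in high-insulin cells, and the 2 sets did not overlap between libraries. The level was 3.43-fold higher in low-insulin cells (log2 fold change 1.78, SE 0.32, adjusted p = 7.06e-04 over 12536 genes), where 3.1% of all genes were called. The difference was 1.53 and did not pass without library 2 (adjusted p = 0.114). It stayed called when the 9 and 5 cells under 20% insulin were left out (1.79). Low-insulin cells also had more UMIs, with medians of 23032 and 19920 against 17921 and 16287. After thinning to 4000 UMIs, Scn3a was found in 6.59% and 15.8% of low-insulin and 1.10% and 3.16% of high-insulin cells.

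The other 4 genes did not pass in this comparison. Scn9a was at 134 and 140 in low-insulin and 128 and 116 in high-insulin cells, Scn8a at 55.8 and 64.6 against 59.3 and 57.8, and Scn2a at 4.25 and 1.40 against 4.71 and 1.05. Scn3b was at 9.10 and 7.02 against 3.77 and 3.15, with a log2 fold change of 1.10 that did not pass (SE 0.60, adjusted p = 0.388). The same split by hormone share in Gcg, Sst and Ppy cells gave 0 of 5 called in each, where 0.0638%, 0.0558% and 0.271% of all genes were called by edgeR. DESeq2 also called 0 of 5, and 1 of these tests, Scn9a in Gcg cells, had an unadjusted p under 0.05 (log2 fold change 0.48, adjusted p = 0.903).

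In finer bins of insulin share, chosen after the data were seen, Scn3a was lower at each step in library 2 and at the first 2 steps in library 1. Library 1 had 56.7, 25.8 and 14.1 CPM in cells under 30%, from 30% to 40% and from 40% to 50% insulin, and 0 UMIs in the 25 cells at 50% or more, which allows a level of up to 15.0 and so is not shown to lie below the bin before it. Library 2 had 128, 51.1, 27.0 and 11.5. The share of cells with a Scn3a UMI was 48.4%, 21.1%, 14.5% and 0% in library 1 (0 of 25 cells allows up to 12.0%) and 54.2%, 29.6%, 23.1% and 6.38% in library 2. Bins held between 24 and 71 cells.

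Genes that mark mature beta cells were lowest in the bin under 30% insulin. Mafa was at 295 and 117 CPM under 30% insulin and at 1348 and 1601 at 50% or more, and Ucn3, which encodes urocortin 3, at 112 and 120 against 924 and 769. Nkx6-1, a beta cell factor, was at 1087 and 1008 against 1418 and 1619. The later bins had no common direction: Slc2a2, the glucose transporter gene, was at 214 and 286 under 30%, 868 and 876 from 40% to 50% and 534 and 554 at 50% or more, and Pdx1 at 296 and 251, 372 and 398, and then 369.6 and 281. Scn9a was at 176 and 243 against 140 and 106.

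Marker lists of other cells had these sums in low-insulin and high-insulin cells. The leukocyte list summed to 174 and 237 CPM in low-insulin and 9.42 and 19.98 in high-insulin cells, the endothelial list to 257 and 32.3 against 37.7 and 24.2, and the delta list to 644 and 794 against 455 and 440. The gamma list summed to 72.2 and 70.9 against 42.4 and 27.3 and the nerve list to 410 and 412 against 327 and 304. All 5 of these lists were higher in low-insulin cells of both libraries. The alpha list summed to 1387 and 1500 against 1759 and 1799, the ductal list to 470.4 and 495 against 579 and 531 and the beta list to 50647 and 53356 against 59997 and 59652, so these 3 were lower. The pericyte and stellate list, at 53.4 and 2.11 against 6.59 and 7.36, and the acinar list, at 1.82 and 3.51 against 1.88 and 1.05, differed in direction between the libraries. Cells with no hormone, most of which matched the leukocyte and endothelial lists, had Scn3a at 5.66 and 4.81 CPM, below the high-insulin cells. The part of these other markers and of depth in the difference was not tested. In insulin cells with a Scn3a UMI the median share of Gcg was 0.0669% and 0.0707%, beside 0.0762% and 0.0738% in those without, and 0 of them were called doublets. The median share of Ppy was 0.0752% and 0.0648% with a Scn3a UMI, beside 0.0648% and 0.0716% without, and that of Sst 0.0135% and 0.0108% beside 0.0133% and 0.0116%. For Ppy and Sst the order of the medians thus differed between the libraries.

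**Figure D5:**
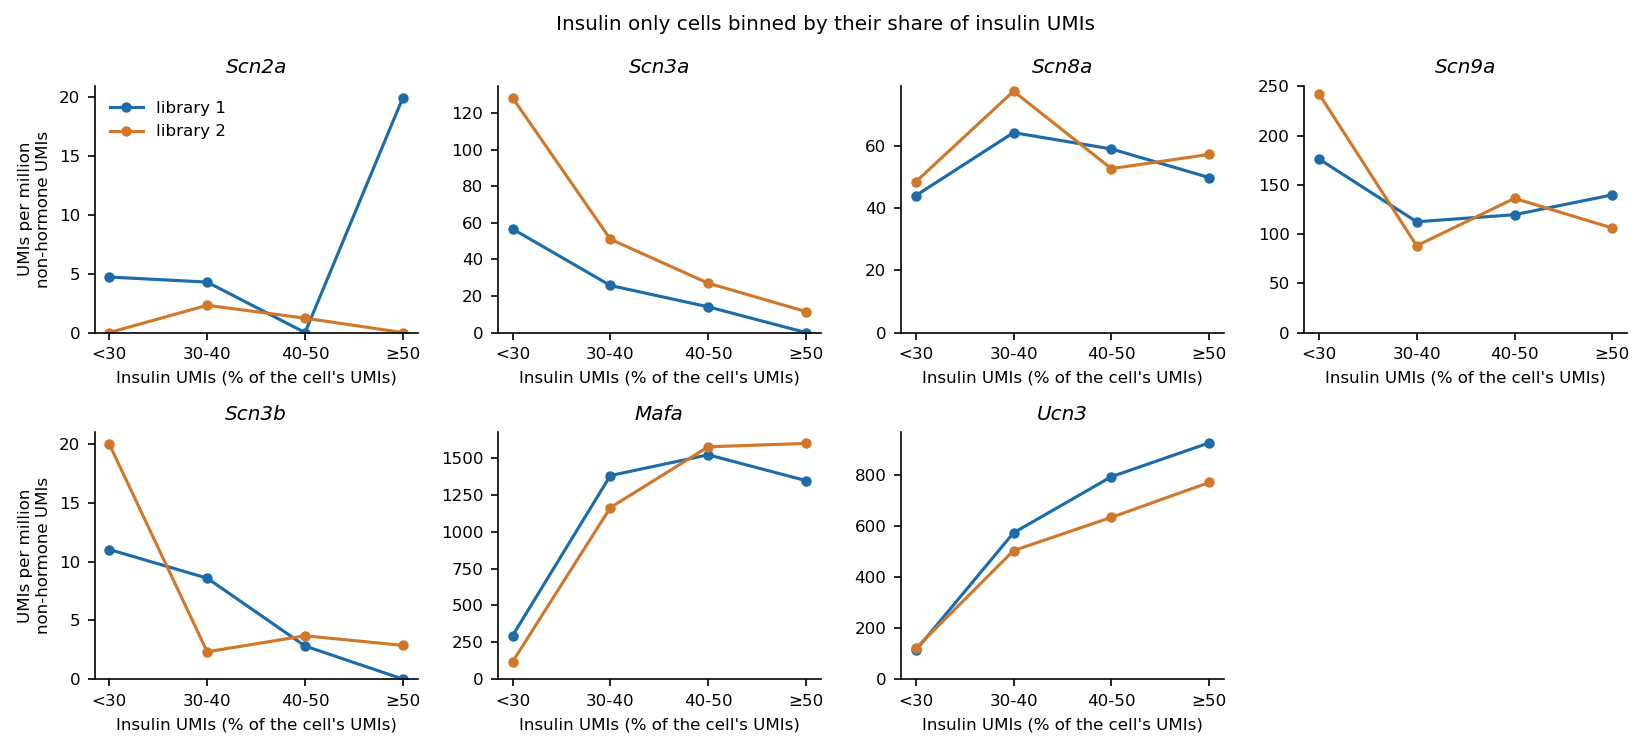
Level of the 5 sodium channel genes and of Mafa and Ucn3 (y axis, CPM over genes other than the hormones) in cells with insulin only, binned by the percent of their UMIs that are insulin (x axis), with 1 line per library. Scn3a runs from 56.7 and 128 under 30% to 0 and 11.5 at 50% or more, while Mafa and Ucn3 are lowest under 30%.

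Among the other sodium channel subunits, 8 of the 9 listed had a row in the tables and 3 had enough UMIs for the test. Scn2b, which encodes the beta2 subunit, had 0 UMIs in cells with insulin only, which allows 0.590 CPM, against 16 and 20 UMIs with Gcg only, 6 and 29 with Ppy only and 3 and 0 with Sst only. Scn11a, which encodes Nav1.9, had 5 and 3 UMIs in cells with Sst only, 0 in those with insulin, Gcg or Ppy only and 5 and 16 in those with Sst and Ppy. Scn2b and Scn11a passed the count filter through the groups in which they were found, so no test is given for them against groups at 0. Scn1a had 11 and 12 UMIs with Gcg only, 3 and 3 with Ppy only and 0 with insulin only or Sst only, without a test.

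Of the 12 partners and regulators of sodium channels, 10 were tested, and 6 were lower and 1 higher in insulin than in Gcg cells, 7 lower and 1 higher than in Sst cells and 5 lower and 1 higher than in Ppy cells. Over all genes the shares called lower were the 17.8%, 10.3% and 14.9% given above. Fgf14, an intracellular factor that binds the channel's tail, was at 1.85 and 0.421 CPM with insulin only, 7.62 and 7.79 with Gcg only, 16.3 and 15.8 with Ppy only and 41.8 and 50.3 with Sst only. It passed in 5 of the 6 comparisons, with a log2 fold change of -5.05 for insulin against Sst cells (SE 0.53, adjusted p = 1.90e-08). Fgf14 was too low in insulin cells to pass the filter on low counts there, so the size of its insulin differences is uncertain. Its relative Fgf12 was lower with insulin in all 3 comparisons (log2 fold changes -0.87, -1.38 and -0.86 against Gcg, Sst and Ppy), and it was the single gene of the list called between low-insulin and high-insulin cells (0.86 higher with low insulin, SE 0.23, adjusted p = 0.0264). Ank3, which encodes the ankyrin that anchors the channels, Nedd4l, a ubiquitin ligase that removes them, and Calm2, a calmodulin gene, were lower with insulin in all 3 comparisons too, by 0.44 to 1.03 on the log2 scale. Sptbn4, a spectrin gene, was higher with insulin in all 3 (0.61, 0.78 and 1.06). Dpysl2 was lower against Gcg cells (-0.41), and Calm3 against Sst cells (-0.51). Calm3 and Fgf14 were lower in Gcg than in Sst cells (-0.49 and -2.45), Fgf14 was higher in Sst than in Ppy cells (1.42), and 0 of the 10 were called between Gcg and Ppy cells. The list's median log2 fold change was -0.43, -0.49 and -0.45 for insulin against Gcg, Sst and Ppy cells.

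The sodium leak channel carries a steady inward current. Of the 4 genes of its complex that were tested, Nalcn, the pore, was lower with insulin in all 3 comparisons (log2 fold changes -0.62, -0.83 and -0.53), Unc79 against Gcg (-1.02) and Ppy cells (-0.82), and Fam155a against Sst cells (-0.94). Fam155a was highest in Sst cells, at 174 and 245 CPM beside 88.7 and 88.9 in Gcg cells and 79.9 and 102 in Ppy cells, and was called against both (log2 fold changes -1.10 for Gcg against Sst and 1.07 for Sst against Ppy). Unc80 was called in none of the 6.

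The sodium pump, which returns sodium to the outside, had a different order. All 4 genes tested were higher in insulin than in Gcg cells, as were 18.2% of all genes, among them the beta subunit genes Atp1b1 (log2 fold change 1.31), Atp1b2 (2.96) and Atp1b3 (0.55). All 4 were also lower in Gcg than in Ppy cells, with changes from -0.49 to -1.71. Of all 12986 genes, 2310 (17.8%) were called there in either direction, 1118 of them higher in Gcg cells. Atp1b1 stood at 193 and 182 CPM with insulin only, 75.8 and 80.0 with Gcg only, 155 and 154 with Ppy only and 330 and 322 with Sst only. Cells with no hormone had 254 and 316. Among the 4 single-hormone groups Atp1b1 and Atp1b2 were highest in Sst cells, and they passed in all 6 comparisons.

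The genes with the most similar pattern were named by Pearson correlation of log2(CPM + 10) over 14 sums, the 6 tested groups and the cells with no hormone in each library, with genes averaging 20 CPM or more over these sums as candidates. Scn8a was closest to Nbea (r = 0.982), Actl6b (0.979) and Unc79 (0.976), and these 3 remained its closest without the 3 nerve-marked barcodes. Scn3a was closest to Tmem59l (0.969), Tox (0.966) and Pcgf2 (0.960), Scn9a to Slc8a1 (0.950), Mapk10 (0.949) and Elavl4 (0.943), Scn3b to Vcan (0.961), Plekhb1 (0.949) and Pcdh9 (0.947), and Scn2a to Zc2hc1a (0.917), Nrxn2 (0.894) and Vcan (0.889). Without the nerve-marked barcodes 5 of these 15 names remained: the 3 of Scn8a, Tmem59l for Scn3a and Zc2hc1a for Scn2a. The sums share libraries and differ in depth, so these values describe the pattern alone.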

How the data were processed

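The authors deposited 1 table of counts per library, each value being the deduplicated UMIs that 1 gene had under 1 barcode. Per the study's methods they were made with Cytonaut: barcodes above a knee found with UMI-tools, exon-only alignment to GRCm38 and Ensembl genes, so intronic reads are absent. Barcodes below the knee were not analysed here. No filter on cells was added.

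The members and all gene lists were chosen with earlier results of these data known. UMIs were summed per library over cells of 6 hormone groups (12 sums, at least 10 cells each), the 5 hormone genes were left out, and edgeR 4.0.16 in R 4.3.3 was run (TMM, filterByExpr, glmQLFit, glmQLFTest; 6 residual degrees of freedom; Benjamini-Hochberg over 12986 genes per contrast). The split by hormone share used 16 sums in a fit of its own with 8 residual degrees of freedom. Cells were not replicates. Shares were not tested, since 2 against 2 libraries cannot go below p = 0.333 in an exact permutation test. A member was given with its fold change, SE and adjusted p where it passed 0.05; list genes were named where called. The test was tried on simulated counts. Alternatives were RLE scaling, no filter, DESeq2 1.42.0, the library as block, hormone thresholds of 0.5% and 2%, hormone genes kept, assignment by top hormone, called doublets removed (Scrublet in scanpy 1.11.5, score above 0.25, 7 cells in each library; a cutoff set after the scores were seen, because the automatic one changed with the number of computing threads), 23 cells in each sum, cells with no hormone in the fit, and each library left out. Some genes of the lists and some sequences are not reported here.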

Additional observations from a re-analysis of the deposited data

Results flagged for a closer look

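The difference of Scn3a between low-insulin and high-insulin cells was tested against the same split in the other hormone groups, as a difference of differences in the same edgeR fit. It exceeded that of Gcg only cells by 1.95 on the log2 scale (SE 0.37, adjusted p = 0.00402) and that of Ppy only cells by 1.85 (SE 0.38, adjusted p = 0.00780). Scn3a was higher in the low-hormone cells in both libraries for insulin, whereas its log2 fold change was -0.17 in Gcg cells and -0.075 in Ppy cells. Against Sst only cells, which are few, the excess was 1.71 and did not pass (adjusted p = 0.104). The values with cells under 20% insulin left out were 1.96, 1.86 and 1.73, in the same order of groups. The part that leukocyte or endothelial RNA plays in the low-insulin cells was not tested beyond the levels given above.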

How the results depend on the processing

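Of 20 calls of the members, 6 held in every alternative run: Scn3a between insulin only and each other single-hormone group, and Scn3b between insulin and Sst, insulin and Ppy, and Gcg and Sst cells. The Scn3b calls against insulin cells carry the limit of the filter on low counts given above. Of 272 alternative values, 235 kept their direction and their call, 36 kept the direction and lost the call, and 1 reversed: Scn3b for insulin against Gcg cells with 23 cells in each sum (0.22, adjusted p = 0.919), where sums were smallest.

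With 23 cells in each sum, 2 of the 5 genes were called for insulin against Gcg (4 as reported), 2 for insulin against Sst (4), 1 for Gcg against Ppy (3) and 0 for Sst against Ppy (2). Scn2a had too few UMIs to be tested there, so its missing calls are no test result. Calls among all genes fell too, to 1363, 1106, 528 and 875 of 8690 in the same order. They were 4680, 2729, 2310 and 1884 of 12986 in the main fit. With cells with no hormone in the fit, the counts of the 5 were 2 for insulin against Sst, 1 for Gcg against Sst (3), 0 for Gcg against Ppy and 0 for Sst against Ppy. Among all genes 2161, 1842, 1419 and 1358 of 14955 were called there, in the same order. At a hormone threshold of 0.5%, 1 of the 5 was called for Sst against Ppy, and 1571 of 13496 genes. Without 1 library the counts ran from 2 to 3 for insulin against Gcg, 3 to 4 for insulin against Sst, 2 to 3 for insulin against Ppy, 0 to 1 for Gcg against Ppy, 0 to 1 for Sst against Ppy and 0 to 1 for low-insulin against high-insulin cells; the lone sum was then assumed to vary like the other groups. Leaving out library 1 ended 6 of the 20 calls and leaving out library 2 ended 9. The cause was not tested. The library as a block kept all 20 calls (Scn3a for insulin low against high 1.77). Sums of the same library come from 1 preparation and are paired by design. Their deviations from the group means correlated between -0.043 and 0.10, with 1 of 15 pairs of groups over 0.1. Little of the spread was thus shared within a library, though 2 libraries cannot show that none was. Scrublet removal, RLE scaling and no filter also kept all 20. Depth limited Scn2a most, with 3 to 13 UMIs in the insulin only and Sst only sums.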

Other observations

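Of the 3 nerve-marked barcodes of library 2, the largest held 177513 UMIs, the second 96154 and the third 15014. The 2 large ones had 348 and 164 UMIs of Prph and 136 and 67 of Elavl4, both neuronal markers of the list, and all hormones were at or below 0.120% of their UMIs. Genes looked up afterwards were also high in them: Nos1, neuronal nitric oxide synthase, at 684 and 379 UMIs, and Vip, vasoactive intestinal peptide, at 625 and 285. They held 171 and 84 UMIs of Scn9a, 62 and 25 of Scn3a, 23 and 9 of Scn2a, 15 and 7 of Scn3b and 5 and 6 of Scn8a. Scn1a, with 0 UMIs in cells with insulin only, had 26 and 13 there, and Scn7a had 20 and 13. The first held 1.85 times the UMIs of the second, and between 0.833 and 2.56 times as many of each sodium channel gene. The third barcode held 1 sodium channel UMI, of Scn8a, and 658 UMIs of the endocrine gene Chga. With 2 barcodes in 1 library there is no replicate of this pattern.

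Scn7a was rare and uneven between the libraries. Without the nerve-marked barcodes, cells with no hormone had 24 of its UMIs in library 1, 16 of them in the 6 cells with most pericyte and stellate markers, and 2 in library 2. Those with Ppy only had 6 and 8, while those with insulin only or Sst only had 0.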
